A study of Mus musculus with 4 samples.

Results

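The 3 muscle alpha-actin genes, Acta1 (skeletal), Actc1 (cardiac) and Acta2 (smooth muscle), were followed in tibialis anterior muscle of Dmd Dup2 mice. They were taken by symbol, before any RefSeq suffix, from a deposited table of 1000 genes. The table stands in falling order of untreated mRNA reads and ends at 14 of them, so genes low in that library are not analysed here. All 3 were found, as NM_009606, NM_009608 and NM_007392. The treated muscle was labelled scAAV9.U7-ACCA treated. It is an adeno-associated virus vector of the AAV9 type, made to cause exon skipping through a U7 small nuclear RNA. The other muscle was the untreated control. Both carried the same allele, Dmd Dup2, in which exon 2 of dystrophin is duplicated, and no wild-type muscle was analysed here. The labels give neither age, sex nor the number of animals, and do not say whether animals were pooled. Each muscle gave 1 mRNA library, from total RNA with a stranded kit, and 1 library of ribosome footprints, the mRNA fragments covered by ribosomes. With 1 library per group, no difference has a replicate check and no p-value is given. Intervals cover counting error only.

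Actin polymerises into the thin filament along which myosin pulls. The alpha-actins are coded by separate genes, their proteins are of the same length, and they differ at very few residues. In mice, cardiac alpha-actin is the main form in the heart and is abundant in developing and regenerating skeletal fibres, while skeletal alpha-actin takes over as fibres mature. Smooth muscle alpha-actin marks vessel walls, and also fibroblasts that have turned contractile in scarred tissue. Actb and Actg1 code for the cytoplasmic actins of all cells and Actg2 for the actin of gut and bladder smooth muscle.

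The sequence before each gene's start is shown because muscle actin promoters are known for binding serum response factor at CArG boxes. A CArG box was searched as CCNNNNNNGG with each N an A or a T, a frame that reads the same on both strands. A looser form allowed 1 other base in the core. The 250 bases before the RefSeq start are printed 5′ to 3′, with boxes of either form in capitals. They come from RefSeq on GRCm38.p6, while the submitters' processing notes name mm9 for the reads. The windows are chr8:123894776-123895025, chr2:114052876-114053125 and chr19:34255374-34255623, all on the minus strand.
Acta1: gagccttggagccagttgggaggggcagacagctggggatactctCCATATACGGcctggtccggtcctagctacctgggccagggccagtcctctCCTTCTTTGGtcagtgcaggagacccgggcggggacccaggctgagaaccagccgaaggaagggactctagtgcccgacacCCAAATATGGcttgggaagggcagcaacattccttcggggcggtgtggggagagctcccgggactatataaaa
Actc1: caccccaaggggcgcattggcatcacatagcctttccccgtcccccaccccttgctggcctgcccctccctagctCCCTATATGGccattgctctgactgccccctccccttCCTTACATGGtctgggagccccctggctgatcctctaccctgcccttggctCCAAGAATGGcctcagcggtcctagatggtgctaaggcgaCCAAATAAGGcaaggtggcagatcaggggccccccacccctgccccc
Acta2: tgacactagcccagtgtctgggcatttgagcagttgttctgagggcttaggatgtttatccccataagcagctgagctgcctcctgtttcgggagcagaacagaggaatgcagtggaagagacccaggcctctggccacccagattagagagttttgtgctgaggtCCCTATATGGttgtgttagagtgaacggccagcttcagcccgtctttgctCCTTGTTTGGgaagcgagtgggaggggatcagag
Acta1 held 3 boxes, of which 1 matched the strict form, CCAAATATGG, starting 73 bases before the start. Actc1 held 4, of which 1 was strict, CCAAATAAGG, starting 47 bases before the start. Acta2 held 2, both of the looser form. The strict form was found in 1.47% of all 32851 promoter windows of the same length and the looser or strict form in 8.59%. Among 920 windows of genes in the table these shares were 2.39% and 11.4%. Letters alone do not show binding.

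Facts of the whole series set the precision. The listed genes held 4248818 reads in treated mRNA and 125236 in untreated mRNA, and 1664122 in treated and 3349015 in untreated footprints. Counts were scaled between libraries by TMM, the trimmed mean of M values, and scaled values are given as CPM, reads scaled to a common library size. Calls needed a treated to untreated ratio of 1.5-fold or more in either direction, a 95% interval that excluded 1 and at least 50 reads in the pair of libraries. Such a call compares libraries, not conditions. The muscle label was checked with 14 skeletal fibre genes, of which 13 were listed. They held 25.2% of listed reads in treated mRNA and 31.6% in untreated mRNA, and 34.6% in treated and 33.3% in untreated footprints. With TMM 5 of the 13 were called higher and 0 lower in mRNA, a direction that flips with the scaling, since other scalings gave as few as 0 higher and as many as 6 lower. In footprints 3 were called higher and 2 lower. Over all genes 31.8% were called higher and 24.8% lower in mRNA, and 19.9% higher and 26.2% lower in footprints. A gene low in treated mRNA is listed only through its untreated reads. With a minimum of 200 reads 317 genes were higher and 160 lower in mRNA, against 317 and 247 with the minimum of 50.

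Actc1 differed most among the 3 genes. It had 3476 reads in treated mRNA and 1004 in untreated mRNA, although the treated library was far deeper. Scaled, these were 1029 CPM (95% Poisson interval 995 to 1064) in treated mRNA and 6408 (6017 to 6817) in untreated mRNA. Footprints numbered 3841 in treated muscle and 36926 in untreated muscle, or 2335 (2261 to 2410) and 10842 (10732 to 10953) CPM in treated and untreated muscle. The intervals lay far apart in both kinds of library, with the treated value the lower. Its mRNA log2 ratio was −2.64 and its footprint log2 ratio −2.22. By those ratios 31 of 996 compared genes lay below it in mRNA and 15 of 999 in footprints. Calls were frequent over all genes. In mRNA 24.8% of genes were called lower and 56.6% were called in either direction, and in footprints 26.2% were lower and 46.1% were called in either direction. In bulk muscle, fewer cells of a type and less RNA per cell cannot be told apart.

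Acta1, the actin of mature skeletal fibres, carried fewer footprints in treated muscle, while its mRNA level depended on the scaling. It had 68884 reads in treated mRNA and 3741 in untreated mRNA. Scaled, these were 20393 CPM (20241 to 20546) in treated mRNA and 23875 (23116 to 24653) in untreated mRNA. With TMM that made it 1.17-fold lower (1.13 to 1.21), which is under the fold threshold. It was called lower with the listed totals at 1.84-fold, by the upper quartile at 1.54-fold and with the authors' constants at 2.16-fold. Footprints of Acta1 numbered 23189 in treated and 112492 in untreated muscle, or 14095 (13914 to 14278) and 33029 (32837 to 33223) CPM in treated and untreated muscle. The footprint level was 2.34-fold lower (2.31 to 2.38), and it was called lower.

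Acta2 had the fewest reads of the 3 in every library except treated footprints. Its mRNA reads numbered 916 in treated and 69 in untreated muscle, which scaled to 271 CPM (254 to 289) in treated mRNA and 440 (343 to 557) in untreated mRNA. The mRNA level was 1.62-fold lower (1.25 to 2.08), a call that rests on 69 untreated reads. Footprints of Acta2 numbered 4140 in treated and 11358 in untreated muscle, or 2516 (2440 to 2594) and 3335 (3274 to 3397) CPM in treated and untreated muscle. The footprint level was 1.33-fold lower (1.28 to 1.37), under the threshold and therefore not called. Its direction was thus the same in both readouts, while the treated and untreated values stood closer together than those of Actc1.

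**Figure D1:**
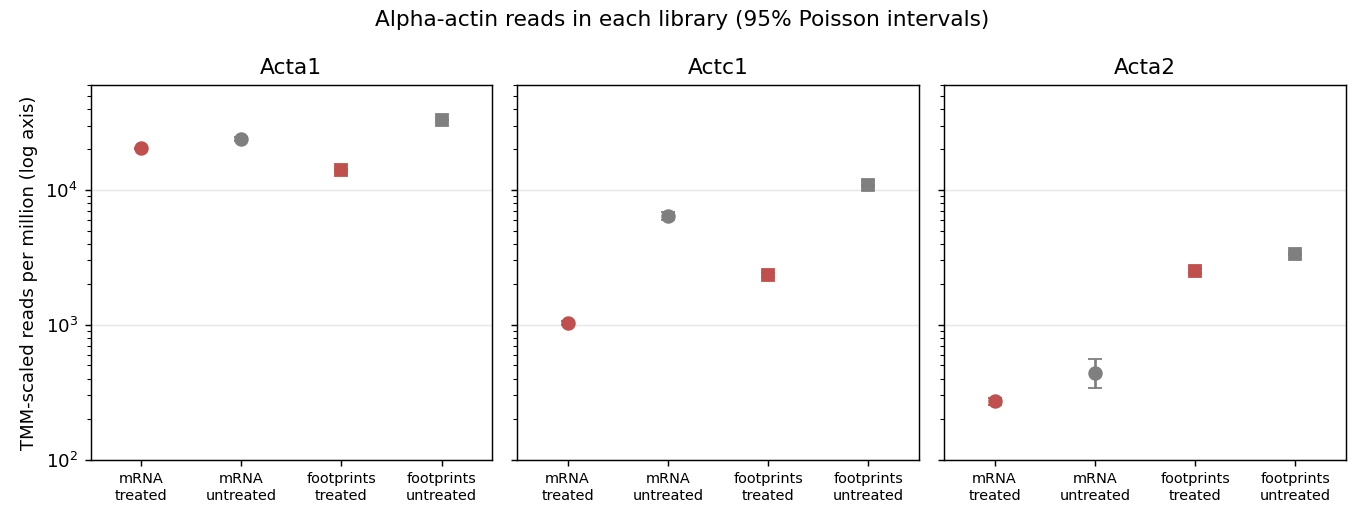
TMM-scaled CPM (log axis) of Acta1, Actc1 and Acta2 in the 4 libraries, treated left of untreated, with circles for mRNA, squares for footprints and bars for 95% Poisson intervals. Treated values lie below untreated ones in every panel, by the widest margin for Actc1 and by the narrowest for Acta1 mRNA (20393 in treated against 23875 in untreated muscle), and levels are not per length, so heights are to be compared within a panel.

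The make-up of alpha-actin reads does not depend on how libraries are scaled. Acta1, Actc1 and Acta2 held 94.0%, 4.74% and 1.25% of the alpha-actin reads in treated mRNA, and 77.7%, 20.9% and 1.43% in untreated mRNA. The Actc1 share had 95% exact binomial intervals of 4.59 to 4.90% in treated and 19.7 to 22.0% in untreated mRNA. In footprints the shares were 74.4%, 12.3% and 13.3% in treated muscle and 70.0%, 23.0% and 7.06% in untreated muscle. Thus Actc1 held the smaller share in treated muscle in both readouts, and Acta2 held the larger share in treated footprints. As the coding lengths of the 3 genes are alike, footprint shares compare the genes per length, provided that each read was assigned to its own gene. How reads matching several actins were assigned is not stated, and their part in these shares was not tested. No transcript lengths were used here, so mRNA shares are of reads and not of molecules.

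Set against Acta1 in the same library, Actc1 had 5.05 reads per 100 Acta1 reads (4.88 to 5.22) in treated mRNA and 26.8 (25.01 to 28.8) in untreated mRNA. This ratio was 5.32-fold lower (4.92 to 5.75) in treated muscle. In footprints there were 16.6 Actc1 reads per 100 Acta1 reads (16.0 to 17.1) in treated and 32.8 (32.4 to 33.2) in untreated muscle, 1.98-fold lower (1.91 to 2.05) in treated muscle. The balance between the cardiac and skeletal forms therefore differed in the same direction in both readouts and by more in mRNA. Acta2 had 1.33 reads per 100 Acta1 reads (1.24 to 1.42) in treated mRNA and 1.84 (1.43 to 2.34) in untreated mRNA. In footprints it had 17.9 (17.3 to 18.5) in treated and 10.1 (9.90 to 10.3) in untreated muscle. Against Acta1, Acta2 was thus 1.39-fold lower (1.08 to 1.78) in treated mRNA and 1.77-fold higher (1.70 to 1.84) in treated footprints.

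**Figure D2:**
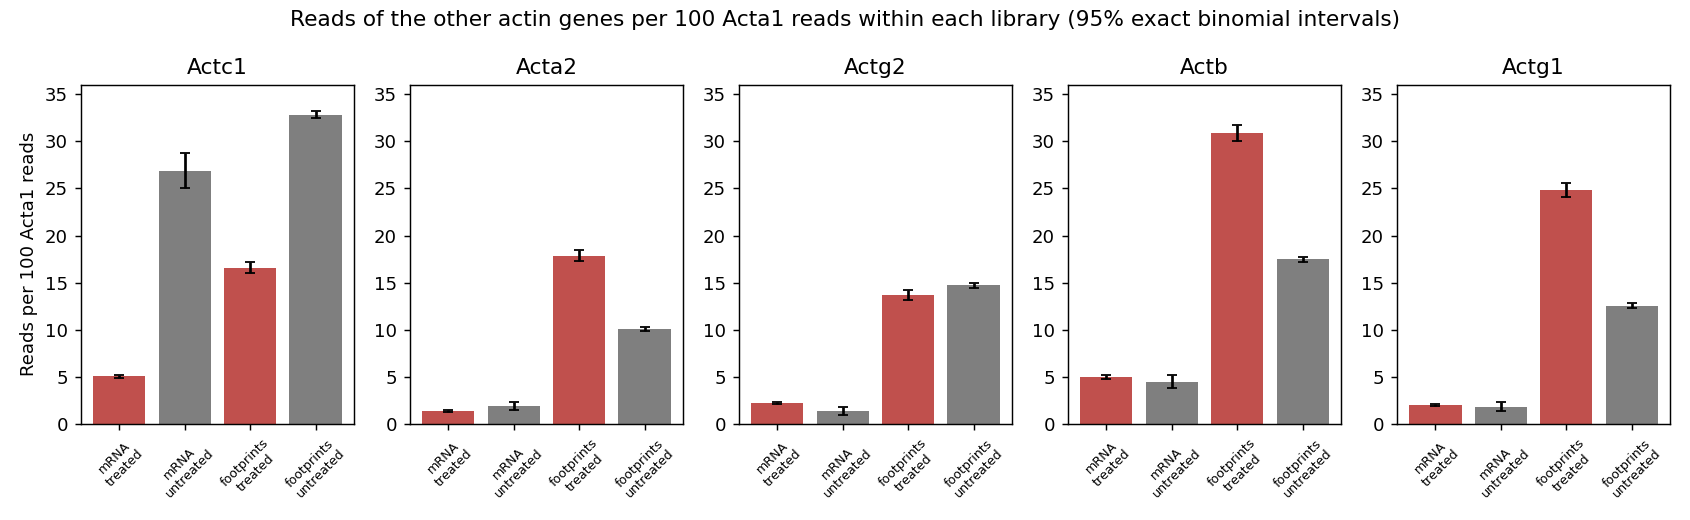
Reads of Actc1, Acta2, Actg2, Actb and Actg1 per 100 Acta1 reads in each library, treated bars (red) left of untreated bars (grey), with 95% exact binomial intervals. Actc1 stands at 5.05 in treated against 26.8 in untreated mRNA. All 5 genes lie higher in footprints than in mRNA of the same condition, Actc1 by 3.28-fold in treated and 1.22-fold in untreated muscle.

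The other actins show how the 3 genes compare with close relatives. Actb had 4.96 reads per 100 Acta1 reads in treated mRNA and 4.46 in untreated mRNA, and the treated to untreated ratio of these values was 1.11 (0.947 to 1.30). Actg1 had 2.04 in treated and 1.82 in untreated mRNA, a ratio of 1.12 (0.878 to 1.43). Neither interval excluded 1, so no difference from Acta1 was detectable in mRNA at this depth. In footprints, Actb had 30.9 per 100 Acta1 reads in treated and 17.5 in untreated muscle, and Actg1 had 24.8 in treated and 12.6 in untreated muscle. Both were thus higher against Acta1 in treated footprints, by 1.77-fold (1.71 to 1.82) for Actb and 1.98-fold (1.91 to 2.04) for Actg1.

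Actg2 stood close to Acta1 in footprints and apart from it in mRNA. Its mRNA reads numbered 1543 in treated and 49 in untreated muscle, and its footprints 3167 in treated and 16554 in untreated muscle. Actg2 mRNA had a treated to untreated ratio of 1.46 (1.10 to 1.98), under the threshold. Its footprints were 2.52-fold lower (2.43 to 2.62), and were called lower. Per 100 Acta1 reads it had 13.7 footprints in treated and 14.7 in untreated muscle. That is a ratio of 0.928 (0.891 to 0.966), a small difference whose interval excluded 1. In mRNA the same ratio was 1.71 (1.28 to 2.28), resting on 49 untreated Actg2 reads.

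Coding sequences of the actins are nearly identical in places. The sources used here do not say how reads matching several of them were assigned, and the part of such reads in these counts was not tested. Nucleotide sequences of the transcripts were not used here. Set per 100 Acta1 reads, Acta2 was 13.4-fold higher (12.5 to 14.4) in footprints than in mRNA of treated muscle, and 5.47-fold higher (4.31 to 6.95) in untreated muscle. For Actg1 the excess was 12.2-fold (11.5 to 12.9) in treated and 6.91-fold (5.44 to 8.79) in untreated muscle, and for Actb 6.24-fold (5.97 to 6.51) in treated and 3.92-fold (3.35 to 4.58) in untreated muscle. For Actg2 it was 6.10-fold (5.73 to 6.49) in treated and 11.2-fold (8.47 to 14.9) in untreated muscle, and for Actc1 3.28-fold (3.13 to 3.44) in treated and 1.22-fold (1.14 to 1.31) in untreated muscle. The counts of all 6 genes are uncertain to the extent that such reads were split among them.

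Translation efficiency is the number of footprints for a given number of mRNA reads, both scaled. For Acta1 it was 0.691 (0.681 to 0.702) in treated muscle and 1.38 (1.34 to 1.43) in untreated muscle, a treated to untreated ratio of 0.4997 (0.482 to 0.518), and it was called lower. That call was lost with the listed totals, at a ratio of 0.764, and with the authors' constants, at 0.763. Over 995 compared genes 31.9% were called lower, 26% higher and 57.9% in either direction, and 221 genes lay below Acta1. For Actc1 the value was 2.27 (2.17 to 2.38) in treated and 1.69 (1.59 to 1.80) in untreated muscle. This is a ratio of 1.34 (1.24 to 1.45), under the threshold and opposite in direction to Acta1. Actc1 was called higher under 4 of 6 scalings, with ratios of up to 2.05. For Acta2 it was 9.28 (8.64 to 9.96) in treated and 7.52 (5.94 to 9.52) in untreated muscle, with overlapping intervals and a ratio of 1.23 (0.964 to 1.58), and it was called higher under 3 of 6 scalings, at up to 1.89.

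Counted from the highest, Acta2 ranked 3 in treated and 7 in untreated muscle among 995 genes in footprints per mRNA read. Actg1, the cytoplasmic gamma form, ranked 4 in treated and 3 in untreated muscle. Actb ranked 17 in both, and Actg2 ranked 19 in treated and 1 in untreated muscle. Acta1 ranked 670 in treated and 274 in untreated muscle, and Actc1 ranked 124 and 157 in treated and untreated muscle. The smooth muscle and cytoplasmic actins thus stood near the top in both muscles, and the skeletal form did not.

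**Figure D3:**
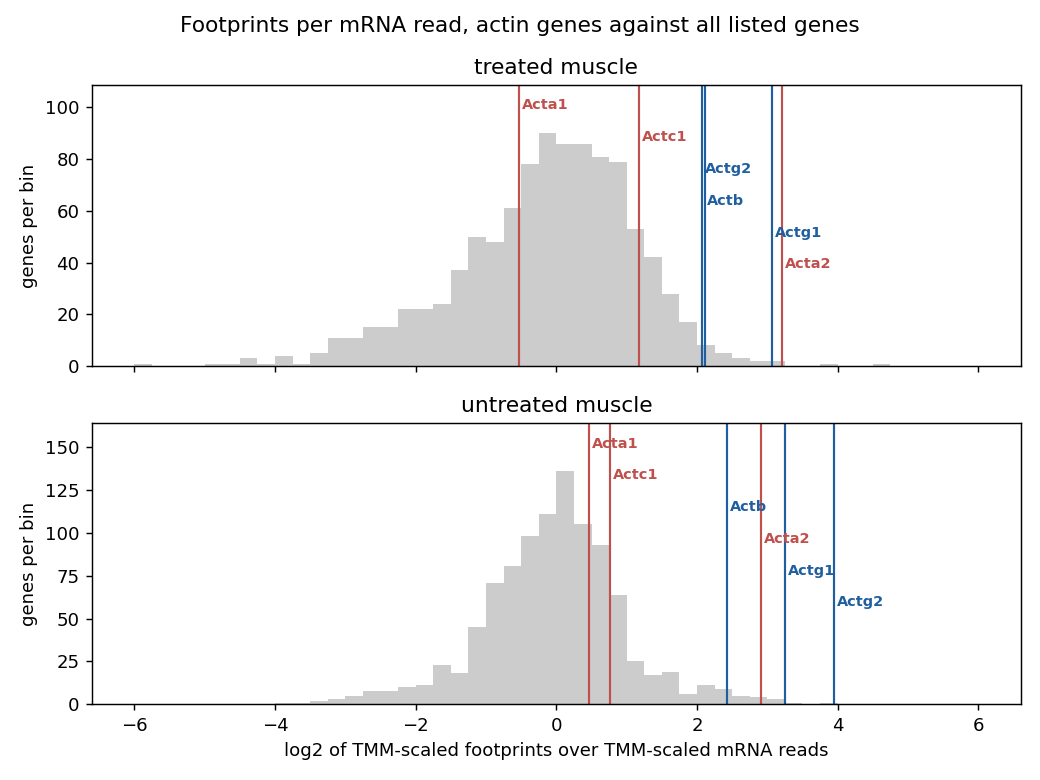
Histograms of log2 footprints per mRNA read (both TMM-scaled) over 995 genes, treated muscle above untreated muscle, with vertical lines for the alpha-actins (red) and the other actins (blue). Acta1 lies at −0.53 in treated and 0.47 in untreated muscle, below and above the middle of the genes, and Acta2 lies in the upper tail at 3.21 in treated and 2.91 in untreated muscle.

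Library scaling shifts all ratios together. The median log2 ratio of all genes was 0.06 in mRNA and −0.02 in footprints with TMM, −0.60 and −0.06 with the listed totals, and −0.82 and −0.29 with the authors' constants. Of all mRNA calls 56.2% were higher with TMM and 16.8% with the authors' constants, and of footprint calls 43.2% and 23.8%. Relative to the TMM median gene, Acta1 lay at −0.29 in mRNA and −1.21 in footprints, Actc1 at −2.70 and −2.19, and Acta2 at −0.76 and −0.39 in the same order. Under 6 scalings Actc1 was called lower in 6 of 6 in both mRNA and footprints. Acta1 footprints and Acta2 mRNA were also lower in 6 of 6. Acta1 mRNA was called lower in 3 of the 6, with log2 ratios between −1.11 and −0.23, and Acta2 footprints in 1 of the 6. Acta1 translation efficiency was called lower in 4 of the 6, while that of Actc1 was called higher in 4 of the 6 and that of Acta2 in 3.

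**Figure D4:**
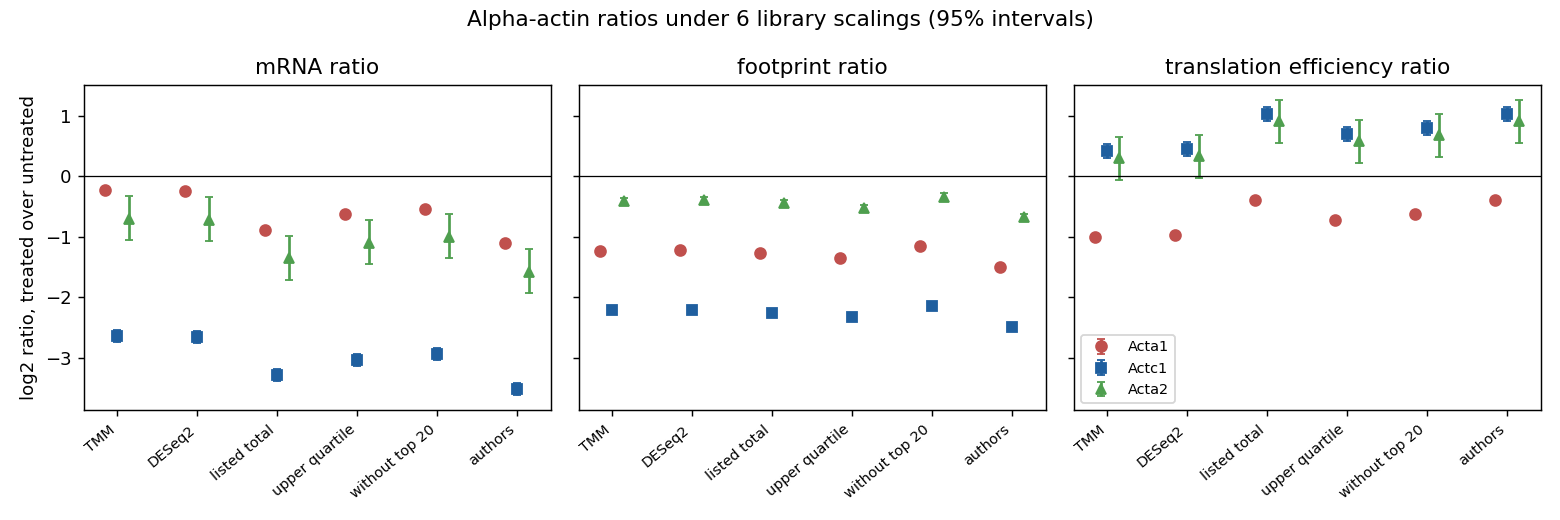
Log2 treated to untreated ratios of Acta1, Actc1 and Acta2 in mRNA, footprints and translation efficiency under 6 library scalings, with 95% intervals. A scaling shifts the 3 genes alike, all mRNA and footprint ratios lie below 0, and Acta1 mRNA lies at −0.23 with TMM and at −1.11 with the authors' constants.

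Thin filament partners did not move one way with the alpha-actins. Of 29 symbols, older aliases included, 16 were listed and 15 had enough mRNA reads, of which 4 were called higher and 6 lower. The background of mRNA calls was 31.8% higher and 24.8% lower. The list's median mRNA log2 ratio was −0.01, against 0.06 for all genes. Tnnt1, the slow troponin T, had 19 reads in treated and 37 in untreated mRNA and was 42.0-fold lower (23.5 to 77.3). It is listed through its untreated reads, so its fold is a description only, as is that of other genes with few treated reads. Tpm3, a slow-fibre tropomyosin, was 4.76-fold lower (2.74 to 7.90). Neb, the ruler protein nebulin, was 5.66-fold higher (5.41 to 5.94), and Kbtbd5, also known as Klhl40, which stabilises nebulin, 3.02-fold higher (1.99 to 4.83). In footprints 3 of 16 were higher and 3 lower, where 19.9% of all genes were called higher and 26.2% lower. Nrap, a scaffold of new myofibrils, was 2.09-fold higher (2.01 to 2.16) in footprints. Capzb, a cap of the filament's barbed end, was 2.09-fold lower (1.86 to 2.35). Tnnt1 was called lower in footprints too, whereas Neb, Kbtbd5 and Tpm3 had footprint ratios of 1.21, 1.10 and 0.857, with no call. Kbtbd5 and Tpm3 had 22 and 19 reads in untreated mRNA. Over the 6 scalings the list had 2 to 4 higher and 6 to 8 lower calls in mRNA.

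Genes that fold, cut or buffer actin are described next. Of 34 symbols 16 were listed, and 9 were called lower and 1 higher in treated mRNA, with a median log2 ratio of −0.73. The mRNA background was 24.8% lower and 31.8% higher, with a median log2 ratio of 0.06 for all genes. Of the 8 listed subunits of the chaperonin that folds actin, set apart after the values were seen, 2 were called lower, Cct3 and Cct8, and 5 had mRNA ratios above 1 with no call. Of the other 8 genes 7 were lower and 1 was higher. Cfl1, the cofilin that severs filaments, was 5.06-fold lower (3.40 to 7.36). Tmsb4x, the thymosin that binds actin monomers, was 4.28-fold lower (2.77 to 6.41), and Arpc3, a subunit of the branching complex, 4.01-fold lower (2.19 to 6.89). Gsn, the severing protein gelsolin, was 3.13-fold higher (2.60 to 3.79). In footprints 6 were lower and 0 higher, among them the muscle cofilin Cfl2 at 2.36-fold (2.05 to 2.74) and the profilin Pfn1 at 2.31-fold (1.92 to 2.79). Cfl1 was also lower in footprints, by 1.95-fold (1.64 to 2.33). Tmsb4x had a footprint ratio of 1.46 (1.28 to 1.68), opposite in direction to its mRNA, and was not called. Arpc3 and Gsn had footprint ratios of 0.878 and 1.33, with no call. Untreated mRNA reads of Tmsb4x and Arpc3 numbered 29 and 16. Footprint calls of 26.2% lower and 19.9% higher over all genes are the background. With other scalings 9 to 11 were lower in mRNA and 6 to 12 in footprints.

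Of 26 symbols tied to serum response factor, aliases included, only 4 were listed. Abra, an activator of that factor, was 8.42-fold higher (5.10 to 15.1) in treated mRNA. That fold rests on 15 untreated reads, where the lowest listed gene had 14. The sarcomere-associated LIM protein gene Fhl1 was 9.65-fold lower (8.52 to 10.9) and Tagln2, an actin-binding protein, 6.95-fold lower (4.41 to 10.7). Vcl, the anchor protein vinculin, had a ratio of 0.806 with no call. The listed genes of this group thus differed in both directions, as did all genes, with 31.8% called higher and 24.8% lower in mRNA. In footprints Abra was 10.3-fold higher (9.32 to 11.4) and Fhl1 2.25-fold lower (2.04 to 2.48), and the other 2 were not called. Footprint shares for all genes were 19.9% higher and 26.2% lower.

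Actc1 is known as a gene of immature fibres and of the heart, and is not counted in the lists that follow. Of 27 immature fibre symbols, aliases included, 12 were listed, and Myog and Myod1 were not among them. Of the 11 with enough reads, 6 were lower and 1 higher in treated mRNA, with a median log2 ratio of −0.80. The higher gene, Myf6, was 1.92-fold higher (1.24 to 3.16) in mRNA, on 20 untreated reads. In footprints Myf6 was 4.38-fold higher (3.76 to 5.12). Casq2, calsequestrin of heart and slow fibres, had 101 reads in treated and 103 in untreated mRNA and was 22.0-fold lower (16.5 to 29.2). The light chain gene Myl4, of embryonic and atrial muscle, was 11.7-fold lower (7.36 to 18.3), and Nes, the intermediate filament protein nestin, 4.02-fold lower (2.76 to 5.70). The embryonic and perinatal myosin genes Myh3 and Myh8 had mRNA ratios of 1.11 and 0.869 and were not called. Of 19 cardiac and slow contractile symbols 7 were listed, with Casq2 counted in this list as well. Of the 6 with enough reads, Casq2, Tnnt1 and Tpm3 among them, 4 were lower and 2 higher in mRNA. Actn2, the Z-disc alpha-actinin of heart and all fibres, was lower by 4.19-fold (3.87 to 4.53). Myh7, which codes for slow and cardiac myosin, was 4.07-fold higher (3.36 to 4.98), and the other higher gene, Myh6, 2.47-fold (2.14 to 2.86). Footprint ratios of Myh7 and Myh6 were 0.911 and 1.07, with no call. In footprints 7 of 12 immature fibre genes and 3 of 7 cardiac and slow genes were lower, with 1 and 0 higher. Over all genes 24.8% were lower and 31.8% higher in mRNA, and 26.2% lower and 19.9% higher in footprints.

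Markers of other cells also differed. Of 19 smooth muscle and myofibroblast genes 5 were listed, Smtn, Actg2, Synpo2, Flna and Fn1, while the defining genes Myh11, Tagln and Cnn1 were not analysed here. Smtn, the smooth muscle protein smoothelin, was 2.19-fold lower (1.36 to 3.38) in treated mRNA, whereas Flna, filamin A, was 2.42-fold higher (1.58 to 3.93) and Synpo2 1.82-fold higher (1.38 to 2.46). Over the 6 scalings 0 to 2 of these genes were higher and 1 to 2 lower in mRNA. In footprints Fn1, fibronectin, was 4.58-fold lower (4.27 to 4.93). Of 11 listed fibroblast and collagen genes, 8 were called lower and 2 higher in mRNA, and 10 lower and 0 higher in footprints. Summed levels of the 11 listed fibroblast and collagen genes were 4495 CPM in treated and 19669 in untreated mRNA, and 6804 in treated and 30745 in untreated footprints. Of 7 listed macrophage genes, 5 were lower and 0 higher in mRNA, and 6 lower and 0 higher in footprints. All genes gave 24.8% lower and 31.8% higher calls in mRNA, and 26.2% lower and 19.9% higher calls in footprints. Summed levels of the macrophage genes were 1151 CPM in treated and 2151 in untreated mRNA, and 2249 in treated and 3724 in untreated footprints. No gene of the deposited table had fewer than 13 reads in any library, so reads of these markers do not by themselves show such cells. The part of these groups in the values of Actc1 and Acta2 was not tested. Of 8 endothelial genes 1 was listed, Fabp4, a fatty acid binding protein, with 382 reads in treated and 15 in untreated mRNA and no call. Its footprints numbered 298 in treated and 142 in untreated muscle and were 4.34-fold higher (3.55 to 5.34).

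Genes with the most similar pattern were found by the distance between log2 levels over the 4 libraries, each gene centred on its own mean. This uses 1 value per library and does not depend on scaling. The genes nearest to Actc1 were Ctss, a macrophage protease, at a distance of 0.60, Itm2a, Tfrc, the transferrin receptor, Grb10, a growth factor receptor adaptor, and Col5a1, a collagen chain, at 0.83. Ctss, Itm2a, Tfrc, Grb10 and Col5a1 were lower in treated muscle in both readouts, with mRNA ratios of 0.202, 0.152, 0.290, 0.228 and 0.193. Their direction follows from the choice, as they were picked for a pattern like that of Actc1. Nearest to Acta1 were Txn2, Col4a1, Gabarap, Cops6 and Col4a2, at distances of 0.25 to 0.30, of which Col4a1 and Col4a2 code for basement membrane collagen chains. Txn2, Gabarap and Cops6 had only 14, 16 and 14 reads in untreated mRNA, so their places are imprecise. On the mRNA and footprint ratios alone, 0 of these 5 genes stayed nearest to Acta1. Nearest to Acta2 were the cytoplasmic actins Actg1 at 0.48 and Actb at 0.91, followed by Myh7b, B2m and Myh9. None of the alpha-actins was among the 5 nearest genes of another. Among 995 genes ranked by distance from Acta1, Actc1 stood at place 832 and Acta2 at place 964. Ranked from Actc1, Acta1 stood at place 171 and Acta2 at place 498, and ranked from Acta2, Actc1 stood at place 258 and Acta1 at place 438.

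**Figure D5:**
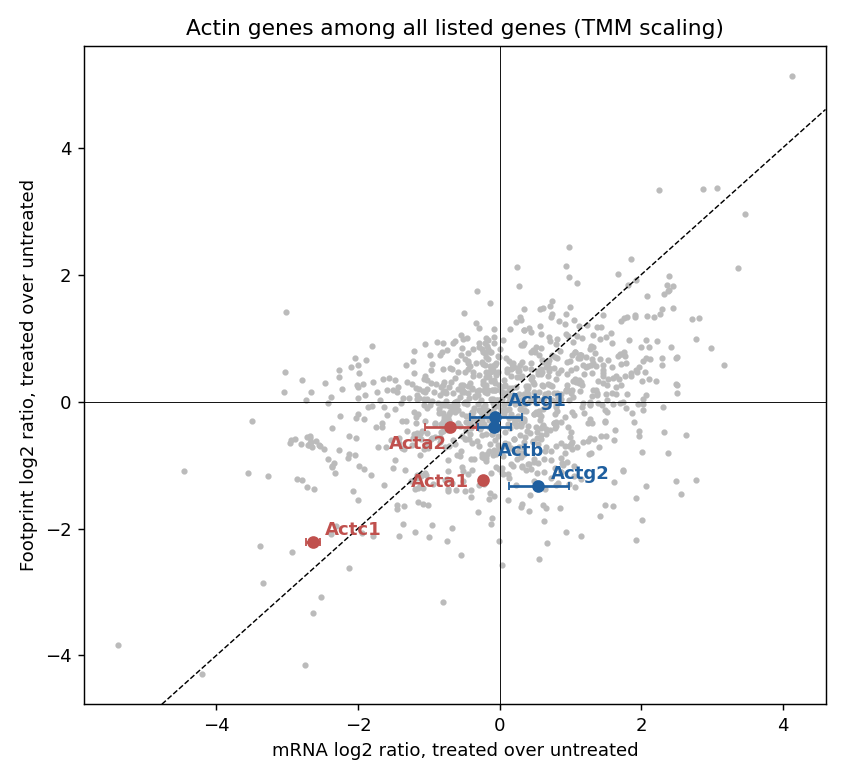
Footprint log2 ratio against mRNA log2 ratio, treated over untreated with TMM scaling, for the genes with enough reads (grey), the alpha-actins (red) and the other actins (blue), with 95% intervals and a dashed line of equal ratios. Actc1 lies at the lower left (−2.64 in mRNA, −2.22 in footprints) slightly above the line, while Acta1 (−0.23, −1.23) and Actg2 (0.55, −1.34) lie below it.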

How the data were processed

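The members and gene lists were chosen with earlier results of these data known. The authors deposited 1 table with a read count per gene and library, whole numbers per the file headers and values. A second set of columns is called normalized read counts in the headers. Those deposited values were read as CPM, because in each library 100% of genes had a value equal, within 0.1, to the read count multiplied by a fixed factor. Their scale is not stated. Per the submitters' processing notes, Trimmomatic, STAR, edgeR and the mm9 build are part of the processing, in roles and versions that are not stated. How reads were counted, with or without strand, and how multiply matching reads were treated is also not stated.

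From the counts, libraries were scaled by TMM (edgeR 4.0.16, R 4.3.3) over the 1000 listed genes. Ratios of treated to untreated have exact conditional binomial 95% intervals (scipy 1.17.1). Translation efficiency, with 0.5 added to each count, and changes of within-library ratios have 95% normal intervals on the log scale. The labels name no molecular identifiers, so reads copied from the same fragment could not be told apart. Intervals cover counting error only, with reads taken as independent, and may be too narrow even for that. The calculation was tested on simulated Poisson counts with known mRNA and footprint ratios. These ratios were equal for each gene, so a changed translation efficiency was not tested. Alternatives were DESeq2 1.42.0 size factors, listed totals, the upper quartile, totals without the 20 most abundant genes, the authors' constants, other minimums and thresholds, and summed alpha-actin reads. Named genes are the actins, the 5 nearest genes to each member, and up to 4 called genes per list with the interval bound farthest from 1. A few further list members were named after their values were seen. RefSeq identifiers matched in 996 of 1000 genes, and promoter sequences for 3 of 3 members.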

Additional observations from a re-analysis of the deposited data

How the results depend on the processing

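No paired analysis was possible because each group holds 1 library, so no library could be left out either. With TMM the log2 ratios of Acta1, Actc1 and Acta2 were −0.23, −2.64 and −0.70 in mRNA, −1.23, −2.22 and −0.41 in footprints and −1.001, 0.42 and 0.30 in translation efficiency. With the listed totals the log2 ratios of Acta1, Actc1 and Acta2 were −0.88, −3.29 and −1.35 in mRNA, −1.27, −2.26 and −0.45 in footprints and −0.39, 1.04 and 0.92 in translation efficiency. By the upper quartile the log2 ratios of Acta1, Actc1 and Acta2 were −0.63, −3.04 and −1.10 in mRNA, −1.35, −2.33 and −0.52 in footprints and −0.72, 0.71 and 0.58 in translation efficiency. Leaving out the 20 most abundant genes, the log2 ratios of Acta1, Actc1 and Acta2 were −0.53, −2.94 and −1.003 in mRNA, −1.16, −2.14 and −0.33 in footprints and −0.62, 0.80 and 0.68 in translation efficiency. By the authors' constants the log2 ratios of Acta1, Actc1 and Acta2 were −1.11, −3.52 and −1.58 in mRNA, −1.50, −2.49 and −0.68 in footprints and −0.39, 1.03 and 0.91 in translation efficiency. Summed over the 3 genes, with TMM, the log2 ratio was −0.50 for mRNA, −1.32 for footprints and −0.81 for translation efficiency. DESeq2 size factors kept every member's ratio within its TMM interval, as did adding 5 to each count for translation efficiency. No called ratio of the 3 genes changed direction between the 6 scalings. With the reads of the 3 genes summed and TMM scaling, translation efficiency was called lower, whereas Actc1 and Acta2 taken singly with TMM were not called. The sum was not computed with the other scalings. Taken singly, Actc1 and Acta2 were called higher with the listed totals, the authors' constants and without the abundant genes. Reads per 100 Acta1 reads do not depend on scaling. Genes called higher made up 56.2% of mRNA calls with TMM, 24.2% with the listed totals, 35.7% by the upper quartile, 40.7% without the abundant genes and 16.8% with the authors' constants. In translation efficiency these shares were 44.97%, 73.9%, 60.0%, 63.8% and 73.8%. At a 2-fold threshold 224 genes were called in footprints, against 461. Measured on the mRNA and footprint ratios alone, 3 of the 5 nearest genes of Actc1 stayed and 0 of those of Acta1 and Acta2. The untreated mRNA library, with 69 Acta2 and 49 Actg2 reads, limits the precision of their mRNA and translation efficiency ratios. The cause of these shifts was not tested.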
